A study of Mus musculus with 8 samples.

Results

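The genes described here carry out the antioxidant programme of the cell: the transcription factor Nrf2 (gene Nfe2l2) and its inhibitor Keap1, the enzymes that make and recycle glutathione, the glutathione peroxidases and transferases, the enzymes that supply NADPH, and the enzymes that remove superoxide and peroxides. The 33 genes were chosen by name for these roles, and all 33 were found among the 54139 genes of the deposited tables. RNA sequencing was run on mouse intestinal epithelial cells in 8 libraries. The 4 cKO libraries came from animals with a floxed Rictor gene and Villin-Cre, and the 4 WT libraries came from animals with Villin-Cre and no floxed Rictor listed, so both groups carry the Cre driver. Villin-Cre makes Cre recombinase under the promoter of an epithelial gene of the gut, and cells of other types in the sample would keep Rictor. Rictor is the defining subunit of mTOR complex 2, which phosphorylates Akt and related kinases. The labels give neither sex, age, intestinal segment nor the way the cells were isolated. They also do not say whether each library is a mouse of its own, so the p-values below rest on library-to-library spread that may be partly technical.

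As background, Keap1 holds Nrf2 in the cytoplasm and passes it to a ubiquitin ligase for destruction. Oxidants and reactive chemicals modify Keap1, Nrf2 then builds up, enters the nucleus, pairs with a small Maf protein and binds antioxidant response elements in the DNA of its target genes. Nrf2 is mainly controlled as a protein, so its mRNA level does not report its activity. In the gut these enzymes handle food-derived electrophiles, lipid peroxides and the peroxide made by mitochondria and oxidases. Akt, a substrate of mTOR complex 2, is known to favour Nrf2 stability through the kinase glycogen synthase kinase.

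Total counts ran between 15110451 and 18351748 in cKO and between 15982538 and 18708335 in WT. Library 3 of cKO and library 3 of WT stood apart from the rest: their root mean square deviation from the mean of the other 7 libraries was 0.57 and 0.49 on the log2 scale, against 0.36 to 0.43 in the other 6. Where leaving out 1 or both of them moved the estimate of a gene described below by more than 1.5 times, the value without them is given, except for estimates within 0.1 of 0. Rictor averaged 32.8 ± 9.24 CPM in cKO and 48.2 ± 7.51 CPM in WT (CPM, read counts scaled to a common library size after TMM adjustment; mean ± SD, n = 4 each), with no overlap between the groups (adjusted p by edgeR's quasi-likelihood test = 0.921; exact two-sided permutation p = 0.0286, the smallest that 4 against 4 allows). Its log2 fold change (cKO over WT) was -0.55 with all libraries and -0.29 without both libraries 3, and its counts include exons outside the deleted part. The 10 markers of epithelium listed for this work summed to 12311 to 16357 CPM in cKO and 12903 to 14823 CPM in WT. Markers of T cells, which lie between the epithelial cells, summed to 206 to 673 CPM in cKO and 161 to 539 CPM in WT, highest in cKO library 3, with 11 of 11 point estimates above 0 and 0 called by edgeR. Those of macrophages and dendritic cells summed to 14.4 to 43.5 CPM in cKO and 16.9 to 21.8 CPM in WT. Fibroblast and muscle markers summed to 1.65 to 2.13 CPM in cKO and 0.371 to 1.33 CPM in WT, with no overlap and none abundant enough to test. Enteroendocrine markers summed to 595 to 709.7 CPM in cKO and 445 to 599 CPM in WT, with 8 of 9 point estimates above 0 and 0 called. The part of these lists in the members' values was not tested.

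None of the 32 members that could be tested differed between cKO and WT past the adjusted threshold. The comparison was made with edgeR's quasi-likelihood test on counts, with Benjamini-Hochberg adjustment over all 14701 genes tested and a threshold of 0.05, and the smallest adjusted p among the members was 0.921. Over all genes 2 passed, which is 0.0136%. Before adjustment 2 members, Gclm and Akr1b8, had an edgeR p under 0.05, against 3.90% of all genes tested. DESeq2 and limma likewise called 0 members. Point estimates lay above 0 for 14 of the 32 members and below 0 for 18, with a median log2 fold change (cKO over WT) of -0.027, beside a median of 0.0022 over all genes tested. The point estimates ran between -0.60 for Akr1b8 and 0.45 for Gsta4.

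The precision differed much between members. The 95% interval of the fold change lay within 1.5-fold in either direction for 19 of the 32 members (59.4%, against 54.6% of all genes tested) and within 2-fold for 26 (81.2%, against 80.8%). The tightest estimates were those of Keap1, Sod2 and Gss, with standard errors (SE) of 0.093, 0.10 and 0.10 on the log2 scale. The widest were those of Gsta1, Gstm3 and Gsta2, at 0.57, 0.45 and 0.43. The interval of Gsta1 included 2-fold changes in both directions, that of Gstm3 a 2-fold lower and that of Gsta2 a 2-fold higher level in cKO.

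**Figure D1:**
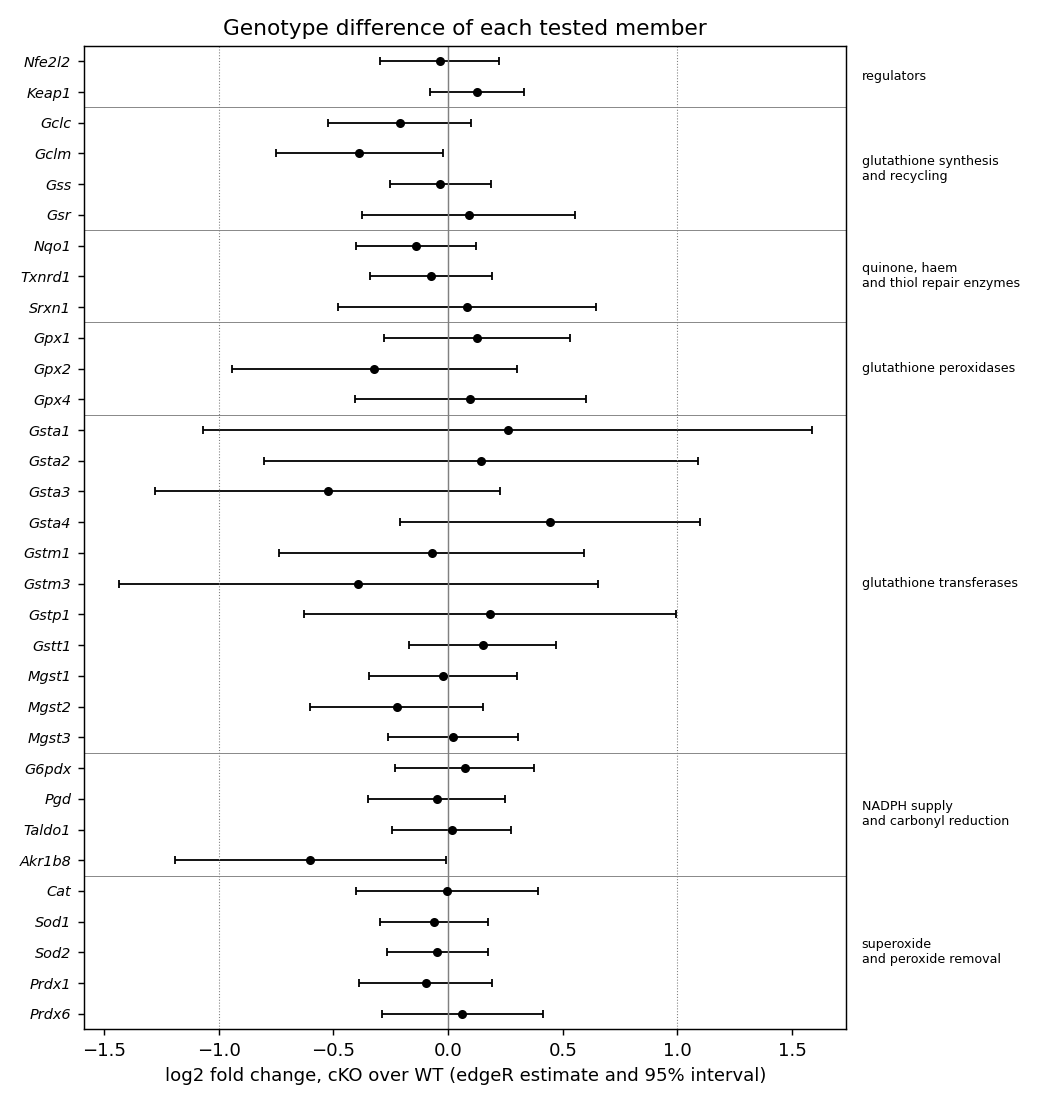
Log2 fold change (cKO over WT, horizontal axis) of the 32 tested members, grouped by role on the vertical axis, with points for the edgeR estimate, bars for its 95% interval and dotted lines at 2-fold. The bars of Gclm and Akr1b8 end just below 0, and that of Gsta1 passes 2-fold on both sides.

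Nrf2 targets carry the antioxidant response element, whose core was searched as TGACNNNGC on both strands of the RefSeq promoter windows of build GRCm38.p6 (250 bases before to 50 after each start site). The first 4 letters of this core also open the binding motifs of AP-1 and CREB factors, so a match does not tell these factors apart. A match stood in a window of 10 of the 28 members that had one (35.7%), against 3781 of 27025 genes (14.0%), and in 15 of 82 other pathway genes (18.3%). The 27025 genes are all those with a window, expressed here or not, and were not matched to the members in base composition. Counted over windows, 27.8% of those of members and 12.4% of all held a match. Some members were chosen as known Nrf2 targets, so their share is not independent of the choice. The 10 members were Gclm, Gsta3, Nfe2l2, Srxn1, Prdx1, Pgd, Mgst1, Txnrd1, Sod1 and G6pdx. A window this short leaves out more distant elements, and no match says only that these letters are not in it. The 250 bases before the start are printed for the 2 members with an edgeR p under 0.05, Gclm and Akr1b8. They are also printed for Sod1, the most abundant member of its group per gene length, though not by CPM. The most abundant members of the other groups are not printed. All printed stretches lie on the plus strand and read 5′ to 3′, with the core in capitals. In Gclm and Sod1 the core lies on the opposite strand and appears as its reverse complement, starting 134 and 56 bases before the start site. Akr1b8 had no match. The regions are chr3:122245307-122245556 for Gclm, chr6:34353896-34354145 for Akr1b8 and chr16:90220512-90220761 for Sod1.
Gclm: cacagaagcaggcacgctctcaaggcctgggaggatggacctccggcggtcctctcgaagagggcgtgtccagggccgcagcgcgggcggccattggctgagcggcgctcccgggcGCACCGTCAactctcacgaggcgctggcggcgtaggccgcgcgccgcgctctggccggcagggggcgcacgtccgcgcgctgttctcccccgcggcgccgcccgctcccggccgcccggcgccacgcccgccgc
Akr1b8: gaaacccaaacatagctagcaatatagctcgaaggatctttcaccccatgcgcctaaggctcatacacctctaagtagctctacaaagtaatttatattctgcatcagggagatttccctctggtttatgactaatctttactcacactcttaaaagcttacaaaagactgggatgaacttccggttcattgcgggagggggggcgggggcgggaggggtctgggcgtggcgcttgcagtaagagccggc
Sod1: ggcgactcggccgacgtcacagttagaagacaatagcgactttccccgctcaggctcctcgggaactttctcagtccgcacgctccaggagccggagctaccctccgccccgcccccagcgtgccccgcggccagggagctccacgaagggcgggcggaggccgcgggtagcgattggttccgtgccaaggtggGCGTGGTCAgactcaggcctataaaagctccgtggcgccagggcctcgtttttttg

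Of the regulators, Nfe2l2 (ENSMUSG00000015839, chromosome 2, 75675513 to 75704641, minus strand) had 367, 321, 288 and 303 CPM in cKO libraries 1 to 4 and 309.9, 343, 364 and 296 CPM in WT libraries 1 to 4. The 2 groups overlapped through most of their range, and the log2 fold change was -0.037 ± 0.12 (SE). Keap1 (ENSMUSG00000003308, chromosome 9, 21229730 to 21239361, minus strand) had 61.4, 58.0, 62.3 and 60.9 CPM in cKO and 56.8, 58.4, 50.2 and 56.8 CPM in WT. It was among the steadiest genes of the set, with the highest cKO library at 1.07 times the lowest. Its log2 fold change was 0.13 ± 0.093 (SE; 95% interval -0.078 to 0.33), 0.081 without WT library 3 and 0.068 without both libraries 3. The mRNAs of Nrf2 and its inhibitor therefore both lay within 1.5-fold of WT by their intervals. Per gene length Nfe2l2 stood at 83.3 ± 8.71 FPKM in cKO and 85.5 ± 8.07 FPKM in WT, and Keap1 at 12.8 ± 0.431 FPKM in cKO and 11.7 ± 0.773 FPKM in WT (SD, n = 4 each).

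Glutathione is made in 2 steps, and the first is carried out by glutamate-cysteine ligase, a pair of a catalytic subunit (Gclc) and a modifier subunit (Gclm). Gclm (ENSMUSG00000028124, chromosome 3, 122245557 to 122270732, plus strand) was the only tested member whose groups did not overlap, which was so for 3.21% of all genes tested. Its level was 69.4, 70.7, 65.8 and 73.8 CPM in cKO and 77.1, 80.1, 130.3 and 78.0 CPM in WT. The cKO libraries lay close together just below WT libraries 1, 2 and 4, and WT library 3 lay far above them all. The log2 fold change came to -0.39 ± 0.17 (SE), with an adjusted p by edgeR of 0.921 and an unadjusted p of 0.0390. It was -0.17 without WT library 3 and -0.14 without both libraries 3, so that WT library 3 carried most of the difference. Its catalytic partner Gclc (ENSMUSG00000032350, chromosome 9, 77754535 to 77794485, plus strand) had 52.8, 69.9, 45.1 and 64.6 CPM in cKO and 74.8, 63.9, 61.4 and 68.6 CPM in WT. Here the groups overlapped, the lowest value was in cKO library 3, and the log2 fold change came to -0.21 ± 0.14 (SE), with an adjusted p by edgeR of 0.921. It was -0.11 without cKO library 3.

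Gss, the synthetase of the second step, was at 111 ± 11.1 CPM in cKO and 113 ± 2.81 CPM in WT, a log2 fold change of -0.033. On the opposite strand it overlaps Acss2, which is expressed here, and whether counting used strand is not stated. Gsr, the reductase that regenerates glutathione with NADPH, was the most abundant of the 4 per gene length, at 109.5 ± 32.8 FPKM in cKO and 103 ± 21.5 FPKM in WT. Its level was 432, 234, 313 and 242 CPM in cKO and 299.6, 366, 238 and 244 CPM in WT. The highest library of the 8 was cKO library 1 and the lowest cKO library 2, so the spread inside cKO was wider than the difference between the genotypes (log2 fold change 0.090 ± 0.21, SE).

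Nqo1, a quinone reductase that is widely used as a reporter of Nrf2 activity (ENSMUSG00000003849, chromosome 8, 107388225 to 107403206, minus strand), had 37.8, 35.2, 32.5 and 41.5 CPM in cKO and 39.1, 46.6, 36.1 and 39.9 CPM in WT. The groups overlapped and its log2 fold change was -0.14 ± 0.12 (SE; 95% interval -0.40 to 0.12), and -0.084 without cKO library 3. Hmox1, the inducible haem oxygenase (ENSMUSG00000005413, chromosome 8, 75093621 to 75100589, plus strand), was the 1 member below the filter on low counts. It had 5, 3, 12 and 6 reads in cKO and 8, 5, 12 and 7 reads in WT, or 0.217 ± 0.120 FPKM in cKO and 0.264 ± 0.110 FPKM in WT. With so few reads it was left out of the edgeR test, and it was not called where no filter was applied, in edgeR, DESeq2 and limma on log2 FPKM.

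Txnrd1, the cytosolic thioredoxin reductase (ENSMUSG00000020250, chromosome 10, 82833951 to 82897712, plus strand), had 426, 342, 353 and 327 CPM in cKO and 409, 413, 355 and 347 CPM in WT, a log2 fold change of -0.075 ± 0.12 (SE). It was the most abundant of its group per gene length, at 50.5 ± 6.04 FPKM in cKO and 53.2 ± 4.95 FPKM in WT. Srxn1, which repairs overoxidised peroxiredoxins, varied more between libraries, at 159, 92.0, 129 and 86.1 CPM in cKO and 97.1, 111, 157 and 75.2 CPM in WT. Its 2 highest libraries were cKO library 1 and WT library 3, and its log2 fold change was 0.083 ± 0.25 (SE).

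**Figure D2:**
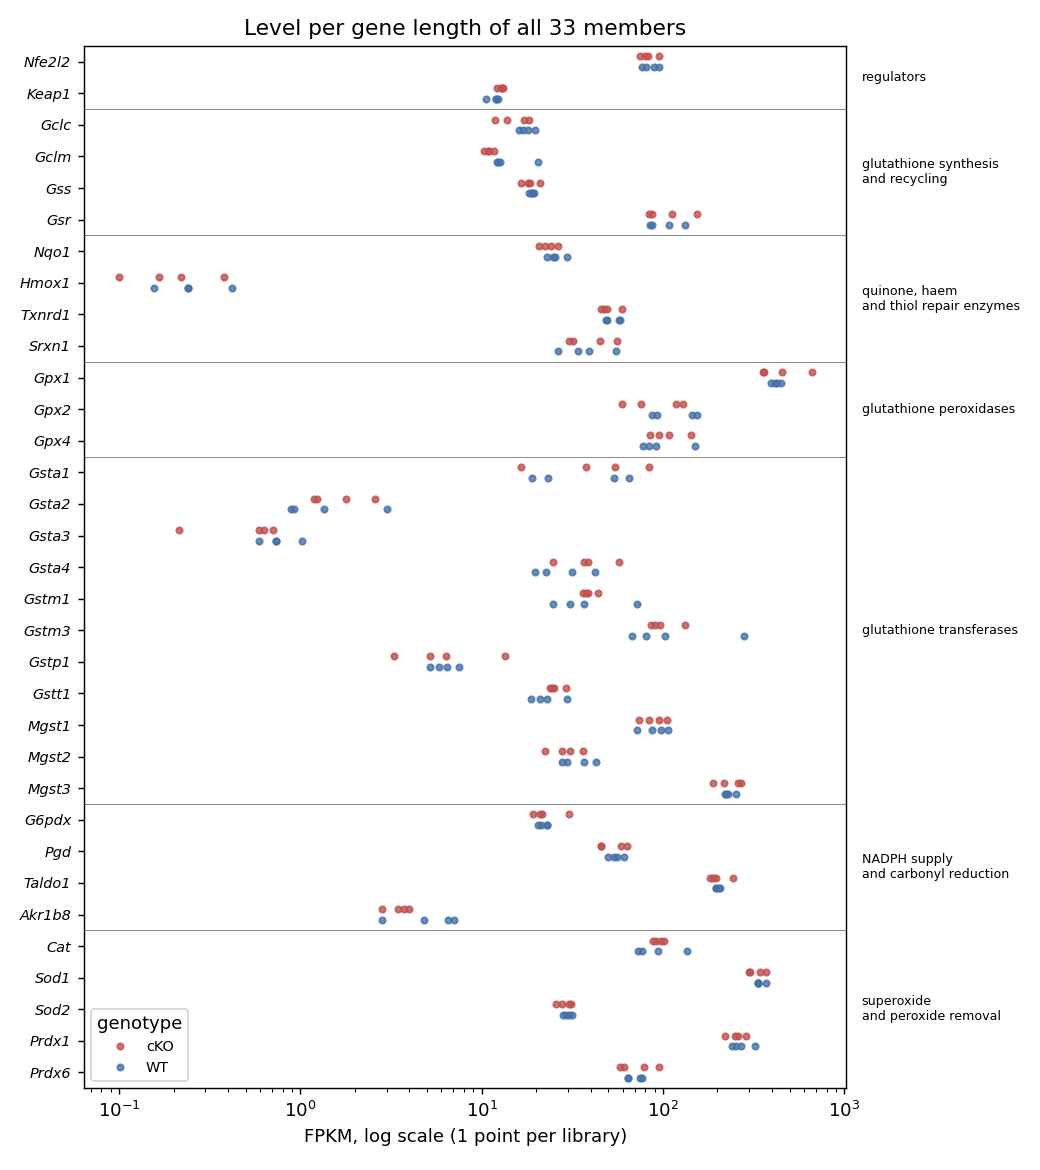
FPKM of all 33 members on a log scale (horizontal axis), 1 point for each library, with cKO above WT in each row and rows grouped by role. Average levels lie between Hmox1 at 0.240 FPKM and Gpx1 at 439 FPKM on average, and the points of the genotypes overlap in every row but that of Gclm.

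Levels per gene length ordered the set widely. Over the 8 libraries 9 members averaged at least 100 FPKM, 19 lay between 10 and 100, and 5 lay below 10. The highest were Gpx1 at 439 FPKM, Sod1 at 336, Prdx1 at 263, Mgst3 at 233 and Taldo1 at 202. The lowest after Hmox1 were Gsta3, Gsta2, Akr1b8 and Gstp1, at 0.653, 1.62, 4.39 and 6.65 FPKM. Summed over the 33 members, FPKM was 2706 ± 358 in cKO and 2735 ± 248 in WT (SD, n = 4 each).

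The glutathione peroxidases reduce peroxides with glutathione. Gpx1, the ubiquitous form (ENSMUSG00000063856, chromosome 9, 108338903 to 108340343, plus strand), had 522, 527, 964 and 658 CPM in cKO and 617, 601, 577 and 651 CPM in WT. One library, cKO library 3, lay above all the others, and cKO libraries 1 and 2 were the lowest of the 8. The log2 fold change was 0.13 ± 0.19 (SE) with all libraries, -0.10 without cKO library 3 and -0.13 without both libraries 3. The T cell markers, at 673 CPM, and the macrophage and dendritic markers, at 43.5 CPM, were also highest in that library. So were the epithelium markers, at 16357 CPM. The part of these 3 lists in the Gpx1 value was not tested. Gpx2, the form of the gut epithelium, had 423, 195, 382 and 244 CPM in cKO and 474, 499, 301 and 282 CPM in WT, a log2 fold change of -0.32 ± 0.28 (SE). Leaving out 1 library gave values between -0.51 without cKO library 1 and -0.15 without cKO library 2, and -0.54 was found without both libraries 3. The lowest value over all alternatives was -0.76. Gpx2 spread more than 2-fold within cKO, and it lies wholly inside Fntb, a gene on the opposite strand. Gpx4, which reduces lipid peroxides in membranes and guards against ferroptosis, was at 188 ± 44.1 CPM in cKO and 176 ± 58.9 CPM in WT and was highest in cKO library 3 and WT library 3. Its log2 fold change was 0.098 with all libraries and 0.36 without WT library 3, and it was 0.19 when both libraries 3 were left out and -0.066 when cKO library 3 alone was. Of the 50-base windows of its transcripts, 34.7% also stand in the pseudogene Gpx4-ps2.

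Glutathione transferases join glutathione to reactive chemicals. As a group the 11 members had the widest spread, with a median SE of 0.29 on the log2 scale, against 0.16 for all tested members, and a median log2 fold change of 0.020. Their summed FPKM was 749, 543, 625 and 549 in cKO libraries 1 to 4 and 500.4, 601, 869 and 557 in WT libraries 1 to 4. The highest library of each group, cKO library 1 and WT library 3, was also the highest in its group for the 20 enterocyte markers, at 20076 CPM in cKO library 1 and 28811 CPM in WT library 3, against 13248 to 15047 CPM in the other cKO libraries and 11537 to 13873 CPM in the other WT libraries. Markers of the proximal small intestine were likewise highest there, at 1993 CPM in cKO library 1 and 3087 CPM in WT library 3, against 1432 to 1714 CPM in the other cKO and 1251 to 1354 CPM in the other WT libraries. The 2 marker lists share Fabp1 and Lct. Of the proximal markers outside the enterocyte list, only Slc46a1 was highest in both libraries, and Gata4 was highest in neither. Slc40a1 was highest of cKO in cKO library 1, at 85.7 CPM, and lowest of WT in WT library 3, at 19.6 CPM. The summed markers of the ileum were also highest in these libraries, at 147 CPM in cKO library 1 and 173 CPM in WT library 3. Slc51a made up most of this sum and was itself highest of cKO in cKO library 3, at 126 CPM. Slc51b and Slc10a2 were highest in both libraries. Fabp6 was highest of WT in WT library 2, at 4.48 CPM, and Fgf15 highest of cKO in cKO library 2, at 0.768 CPM. The part of these lists in the transferase levels was not tested. In bulk RNA, more cells of a type and more RNA per cell cannot be told apart.

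Gstm3 (ENSMUSG00000004038, chromosome 3, 107963696 to 107969283, minus strand), a mu-class enzyme, is described in full because 1 library stood far out, a choice made after its values were seen. It had 177, 121, 127 and 113 CPM in cKO and 89.0, 107, 374 and 137 CPM in WT. WT library 3 was the highest of the 8 and WT library 1 the lowest, a ratio of 4.20 within WT. The log2 fold change was -0.39 ± 0.45 (SE) with all libraries, 0.28 without WT library 3 and 0.31 without both libraries 3. Gstm1, on the same chromosome (108012255 to 108017973, minus strand), was likewise highest in WT library 3 and lowest in WT library 1. It had 65.4, 58.0, 56.0 and 53.7 CPM in cKO and 36.9, 46.0, 107 and 54.8 CPM in WT. Gstm2 lies between Gstm3 and Gstm1 and did not follow this order, at 26.2, 22.3, 25.4 and 30.9 CPM in WT. Of the other mu-class genes listed, Gstm4, Gstm6 and Gstm7 were also highest in WT library 3, and Gstm5 was lowest there. For Gstm1 the log2 fold change was -0.072 ± 0.29 (SE) with all libraries, 0.35 without WT library 3 and 0.36 without both libraries 3 (edgeR adjusted p = 0.937, and 0.0371 unadjusted). Gstm1 and Gstm3 share part of their sequence, as 8.16% of the 50-base windows of Gstm1 transcripts stand in Gstm3 transcripts. Over all other genes the shared part was 28.8% of the Gstm3 windows and 18.9% of the Gstm1 windows. The largest parts were in Gm8834 for Gstm3 (16.0%) and in Gstm2-ps1 for Gstm1 (14.1%).

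**Figure D3:**
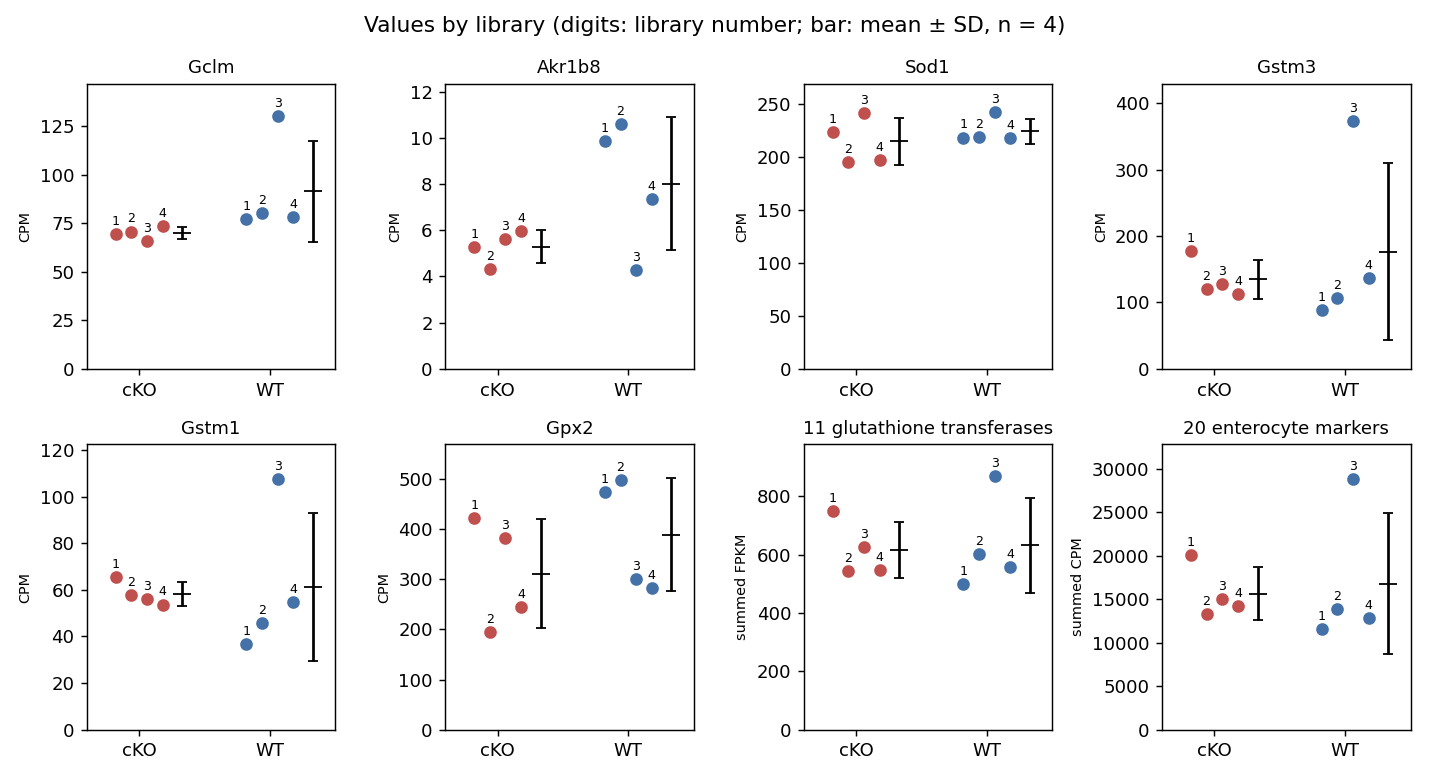
Values by library of 6 members in CPM, the summed FPKM of the 11 glutathione transferases and the summed CPM of 20 enterocyte markers, with cKO left of WT, digits for library numbers and bars for mean ± SD (n = 4). WT library 3 is the highest point of Gclm, Gstm3, Gstm1, the transferases and the enterocyte markers, and the lowest of Akr1b8.

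Of the alpha-class genes, Gsta1 averaged 44.0 FPKM over the 8 libraries, Gsta4 34.2, Gsta2 1.62 and Gsta3 0.653. Mgst3, the most abundant transferase, averaged 233 FPKM. Gsta1 had 80.9, 52.7, 36.2 and 15.9 CPM in cKO and 22.6, 51.8, 62.5 and 18.3 CPM in WT. This was the widest spread within cKO of any tested member, with a ratio of 5.08 between libraries 1 and 4, and its log2 fold change of 0.26 carried an SE of 0.57. It was -0.15 without cKO library 1, 0.59 without WT library 3 and 0.69 without both libraries 3. Of its 50-base windows 90.5% also stand in other genes, mainly Gm3776 and Gsta2, so its reads can be divided among them and its level is uncertain. Gsta2, at 2.02 ± 0.778 CPM in cKO and 1.84 ± 1.19 CPM in WT, shares 49.8% of its windows with other genes. For Gsta2 the log2 fold change was 0.14, and leaving out cKO library 3, WT library 3 or both gave 0.27, 0.68 and 0.81. Gsta4, which acts on the lipid peroxidation product 4-hydroxynonenal, shares none of its windows. It had 73.3, 47.6, 49.7 and 31.6 CPM in cKO and 25.2, 40.3, 53.9 and 29.0 CPM in WT, so that the groups overlapped, and its log2 fold change of 0.45 ± 0.29 (SE; edgeR adjusted p = 0.921) was the highest of the set. It was 0.68 without WT library 3, 0.69 without both libraries 3 and 0.21 without cKO library 1. Gsta3 was scarce, at 2.35 ± 0.956 CPM in cKO and 3.38 ± 0.788 CPM in WT, and lowest in cKO library 1 at 0.948 CPM, where Gsta1, Gsta4 and Gstp1 were at their highest. Its log2 fold change of -0.52 was -0.26 without that library.

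Mgst3, a microsomal enzyme and the most abundant transferase per gene length (ENSMUSG00000026688, chromosome 1, 167371966 to 167393841, minus strand), had 289.5, 211, 299.9 and 242 CPM in cKO and 245, 253, 282 and 247 CPM in WT. The log2 fold change was 0.020 ± 0.13 (SE; 95% interval -0.26 to 0.30). Mgst1 was at -0.022. Mgst2 was at -0.22 (95% interval -0.60 to 0.15), and at -0.11 without cKO library 3, -0.10 without WT library 3 and 0.0097 without both. On the same strand Mgst2 overlaps Gm37261 over 1101 bases, a gene with a mean count of 294. Gstt1, a theta-class enzyme, was at 0.15, and at 0.081 without cKO library 3 and 0.29 without WT library 3. Gstp1, the pi-class enzyme, was at 10.3 CPM in cKO library 1 and 2.50 to 4.83 CPM in the other cKO libraries, against 3.97 to 5.73 CPM in WT. Of its windows 33.7% also stand in Gstp2, and its log2 fold change of 0.18 (95% interval -0.63 to 0.99) turned to -0.33 without cKO library 1.

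The enzymes of NADPH supply feed glutathione reductase and thioredoxin reductase. Taldo1, the transaldolase of the pentose phosphate pathway (ENSMUSG00000025503, chromosome 7, 141392199 to 141402968, plus strand), had 435, 401, 536 and 414 CPM in cKO and 434, 432, 447 and 455 CPM in WT. The WT libraries lay within 1.05 times of each other and cKO library 3 lay above them, and the log2 fold change was 0.015 ± 0.12 (SE). G6pdx, the first enzyme of the pathway, was at 71.8 ± 14.97 CPM in cKO and 68.3 ± 3.83 CPM in WT, with its highest value, 93.8 CPM, also in cKO library 3. Pgd, the next NADPH-forming step, was at 348 ± 59.3 CPM in cKO and 359.8 ± 30.7 CPM in WT. Without cKO library 3 the log2 fold change of G6pdx was -0.082, against 0.073 with all libraries, and that of Taldo1 was -0.084. G6pdx overlaps Ikbkg on the opposite strand.

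Akr1b8, an aldo-keto reductase that reduces aldehydes (ENSMUSG00000029762, chromosome 6, 34354119 to 34368463, plus strand), had the largest difference of the set. Its level was 5.27, 4.31, 5.62 and 5.97 CPM in cKO and 9.86, 10.6, 4.26 and 7.34 CPM in WT. All cKO libraries lay below WT libraries 1, 2 and 4, while WT library 3 was the lowest of the 8, so the groups overlapped. The log2 fold change came to -0.60 ± 0.27 (SE; 95% interval -1.19 to -0.010), with an adjusted p by edgeR of 0.921 and an unadjusted p of 0.0467. It was -0.81 without WT library 3 (adjusted p = 0.552) and -0.84 without both libraries 3 (adjusted p = 0.480), and over all alternatives it ran between -0.84 and -0.44. In WT library 3 Gclm was thus at its highest and Akr1b8 at its lowest.

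The enzymes that remove superoxide and peroxides numbered 5, and the 95% intervals of all 5 lay within 1.5-fold of WT. Sod1, the cytosolic superoxide dismutase (ENSMUSG00000022982, chromosome 16, 90220742 to 90226322, plus strand), had 224, 196, 242 and 197 CPM in cKO and 218.5, 219, 242 and 218 CPM in WT, a log2 fold change of -0.063 ± 0.11 (SE). Sod2, the mitochondrial form, was at 111 ± 10.01 CPM in cKO and 115 ± 5.40 CPM in WT. Prdx1, a peroxiredoxin and Nrf2 target, had the highest CPM of the set in both groups, at 782 ± 83.6 CPM in cKO and 836 ± 108 CPM in WT. Prdx6, which uses glutathione, was at 355 ± 82.6 CPM in cKO and 340.0 ± 31.4 CPM in WT. Cat, the peroxisomal catalase, had 242, 269, 232 and 256 CPM in cKO and 203, 192, 358 and 249 CPM in WT. Its log2 fold change of -0.0041 ± 0.18 (SE) was 0.22 without WT library 3 and 0.25 without both libraries 3 (adjusted p = 0.980, and 0.0495 unadjusted).

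Across the 32 tested members the library with the highest level was WT library 3 for 10 genes, cKO library 3 for 8, cKO library 1 for 7, WT library 2 for 6 and WT library 1 for 1. Over all genes tested the same libraries were highest for 17.2%, 25.8%, 11%, 8.37% and 6.96%. The lowest library was most often cKO library 2 or cKO library 4, with 7 members each, against 10.5% and 8% of all genes tested. WT library 1 followed with 6 members, against 7.06% of all genes, and cKO library 3 was lowest for 5, against 27%.

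**Figure D4:**
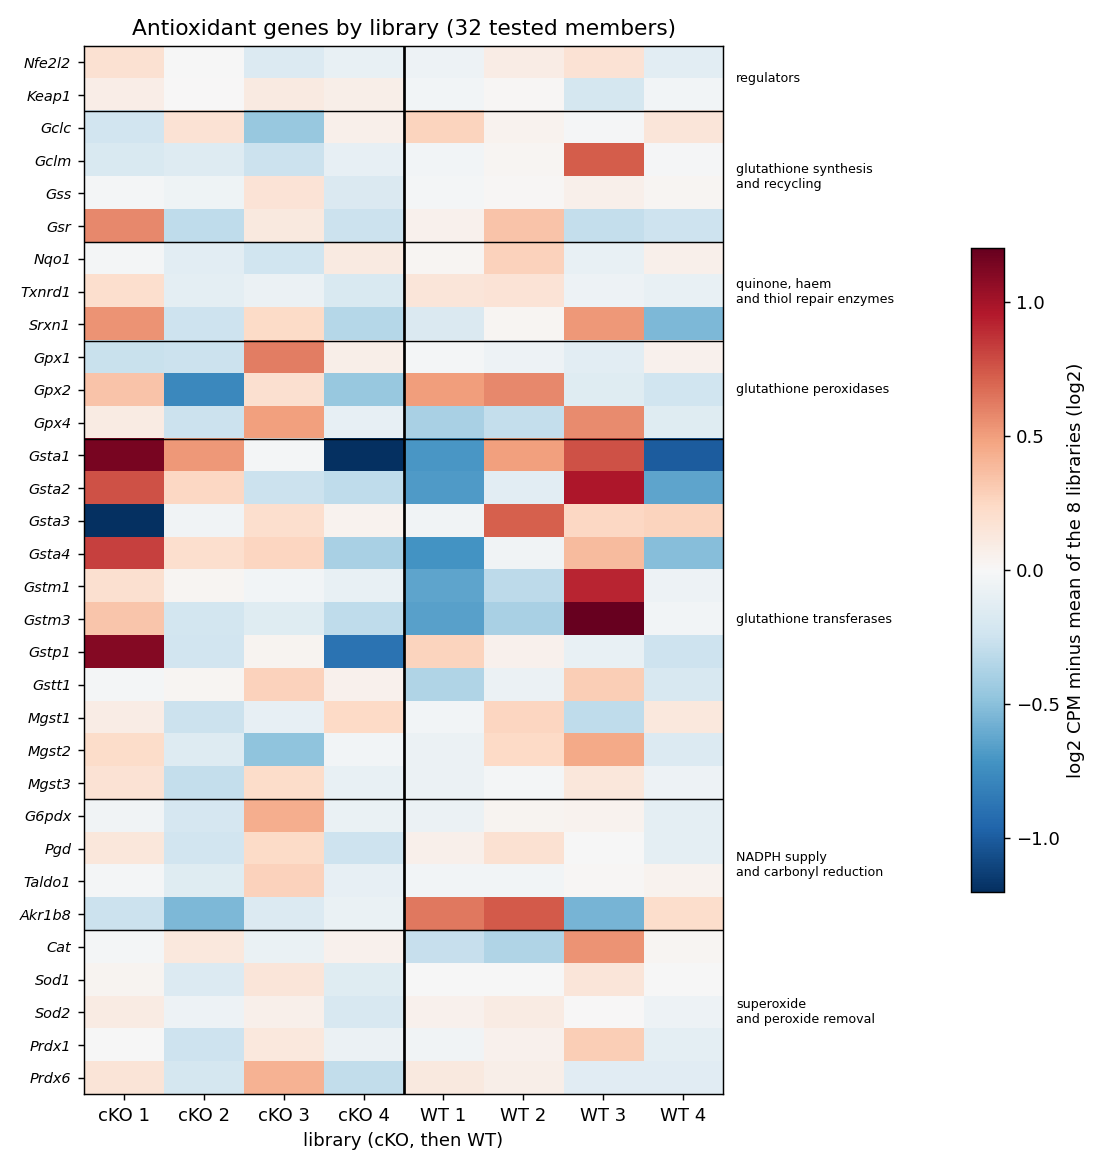
Log2 CPM of the 32 tested members minus their mean over the 8 libraries (colour scale), with cKO libraries left of WT libraries and genes grouped by role. The strongest colours lie among the transferases, where Gsta1 and Gstp1 are high and Gsta3 is low in cKO library 1, and Gstm3 is high in WT library 3.

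A further 98 genes of the pathway were listed for comparison, of which 97 were in the tables and 90 could be tested. By edgeR 0 of them passed the adjusted threshold in either direction, and 6 (6.67%) had p under 0.05 before adjustment, against 3.90% of all genes tested. Point estimates were higher in cKO for 52 (57.8%, against 50.5% of all genes tested) and lower for 38, with a median log2 fold change of 0.036. By list, higher point estimates were found for 9 of 11 other control genes of Nrf2, 6 of 9 NADPH genes, 7 of 18 glutathione handling genes, 3 of 11 other glutathione transferases, 15 of 21 peroxidase and thioredoxin genes and 12 of 20 quinone, haem, iron and carbonyl genes. The medians of these 6 lists lay between -0.044 and 0.083. The 6 with the smallest p were Gstk1, Maff, Aldh1a1, Txnrd3, Chac2 and Ugdh, each with an edgeR adjusted p of 0.921.

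Gstk1, a mitochondrial and peroxisomal transferase, had 15.9, 17.7, 14.6 and 22.1 CPM in cKO and 20.6, 21.9, 34.9 and 30.6 CPM in WT. Among cKO libraries, library 4 alone reached into the WT range, and the log2 fold change was -0.62 ± 0.19 (SE), or -0.39 without both libraries 3. Maff, a small Maf partner of Nrf2, had 14.6, 12.5, 13.5 and 11.2 CPM in cKO and 10.6, 8.79, 11.2 and 7.77 CPM in WT. The lowest cKO and the highest WT library met at 11.2 CPM, and the log2 fold change of 0.43 ± 0.16 (SE) was 0.49 without both libraries 3. Txnrd3, a thioredoxin and glutathione reductase, was at 13.0 ± 1.89 CPM in cKO and 10.01 ± 1.26 CPM in WT, a log2 fold change of 0.38 ± 0.16 (SE), or 0.22 without both libraries 3.

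Aldh1a1, a retinal dehydrogenase that also clears lipid aldehydes, had 75.8, 91.0, 22.4 and 61.6 CPM in cKO and 90.6, 119, 292 and 139 CPM in WT. Its lowest and highest values were those of cKO library 3 and WT library 3, and only cKO library 2 exceeded the lowest WT library. The log2 fold change of -1.35 ± 0.50 (SE) was -0.89 without WT library 3 and -0.61 without both libraries 3. Chac2, which degrades glutathione, was at 8.52 ± 2.39 CPM in cKO and 12.0 ± 1.13 CPM in WT, with no overlap between the groups and a log2 fold change of -0.50 ± 0.22 (SE), or -0.31 without cKO library 3 and -0.34 without both libraries 3. Ugdh, which makes the sugar donor of glucuronidation, was at 139 ± 29.9 CPM in cKO and 194 ± 59.5 CPM in WT, a log2 fold change of -0.49 ± 0.21 (SE), or -0.26 without WT library 3 and -0.16 without both libraries 3.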

How the data were processed

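RNA of intestinal epithelial cells was measured in 4 cKO and 4 WT libraries. The authors deposited a table of raw read counts per gene and a table of FPKM, read fragments scaled to gene length and library size. Per the labels' design text the reads went through Hisat2 and Stringtie, and the counting program, versions, genome build and strand setting are not stated there. Coordinates are those of the deposited table and matched GENCODE M21 (GRCm38) exactly for 30 of the 33 members. The members, gene lists and tests were chosen with earlier results of these data known.

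Counts were tested in edgeR 4.0.16 (R 4.3.3, robust quasi-likelihood, TMM factors, default filter on low counts, genotype as the only term, all 8 libraries). An SE is the size of the log2 fold change over the square root of F. All members are reported. Values by library are given for members with p under 0.05, for the most abundant member of each role by mean FPKM, and for Nfe2l2, Keap1, Nqo1, Hmox1, Gclc and Gclm. Of the other pathway genes, those past the threshold or else the 6 with the smallest p are named. Values by library of other members were added after they were seen. Windows of 50 bases shared between genes were counted over all GENCODE transcripts, both strands. All pairs of libraries differed by more than sampling noise (lowest chi-square per degree of freedom 10.7). Alternatives were other factors and filters, leaving out libraries, a replicate block, DESeq2 1.42.0, and limma 3.58.1 on weighted counts and on log2 FPKM with pseudocounts of 0.1 and 1. The edgeR step was tested on simulated data with known changes.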

Additional observations from a re-analysis of the deposited data

Results flagged for a closer look

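Of 80 groups of 4 libraries examined, 3 had a single library separated by a gap that took up most of the group's range, where chance alone flags about 1 in 20 groups. All 3 were WT library 3. Gclm was at 130.3 CPM there, against 77.1 to 80.1 CPM in the other WT libraries. Gstm3 was at 374 CPM, against 89.0 to 137 CPM. Sod1 was at 242 CPM, against 218 to 219 CPM, a small excess over libraries that lay very close together.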

How the results depend on the processing

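Under all 18 alternatives 0 members were called, and the lowest adjusted p of any member was 0.444. The members with unadjusted p under 0.05 varied. They were Gclm and Akr1b8 with other edgeR factors or filters and in DESeq2. It was Gclm alone without WT library 1, 2 or 4 and Gsta4 alone without cKO library 4. Without WT library 3 they were Gsta4, Gstm1, Gstt1 and Akr1b8. Without both libraries 3 they were Gstm1, Akr1b8 and Cat, and with sample quality weights in limma Gpx2, Pgd and Akr1b8. None were found with the replicate block, on log2 FPKM or without cKO library 1, 2 or 3. The median over members ran between -0.11 and 0.018 when 1 library was left out. Of the 32 members 12 kept their sign throughout and 20 did not, and the cause was not tested. Without both libraries 3 the log2 fold changes with a changed sign were Nfe2l2 0.063, Gsr -0.0026, Gpx1 -0.13, Gstm1 0.36, Gstm3 0.31, Mgst2 0.0097, Mgst3 -0.0061, G6pdx -0.058, Taldo1 -0.080, Cat 0.25 and Prdx6 -0.12. With sample quality weights in limma they were Gsr -0.22, Srxn1 -0.045, Gpx1 -0.031, Gsta1 -0.033, Gstm1 0.28, Gstm3 0.10, Gstp1 -0.41, Mgst3 -0.072, G6pdx -0.064, Taldo1 -0.070, Cat 0.26 and Prdx6 -0.20. With the replicate block they were Gstm1 0.049 and Cat 0.040, and on log2 FPKM Gstm1 0.047 and Cat 0.038 with a pseudocount of 0.1 (with or without a filter) and Gstm1 0.043 and Cat 0.037 with a pseudocount of 1. Members whose sign changed with 1 library left out ranged as follows: Nfe2l2 -0.11 to 0.016, Gss -0.10 to 0.023, Gsr -0.12 to 0.23, Srxn1 -0.11 to 0.30, Gpx1 -0.10 to 0.23, Gpx4 -0.066 to 0.36, Gsta1 -0.15 to 0.59, Gsta2 -0.13 to 0.68, Gstm1 -0.25 to 0.35, Gstm3 -0.61 to 0.28, Gstp1 -0.33 to 0.42, Mgst1 -0.12 to 0.065, Mgst3 -0.054 to 0.12, G6pdx -0.082 to 0.16, Pgd -0.14 to 0.028, Taldo1 -0.084 to 0.072, Cat -0.11 to 0.22, Sod2 -0.087 to 0.013 and Prdx6 -0.085 to 0.17. Rictor then ranged between -0.67 and -0.39.

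The count of all genes called was 2. It was 10 without a filter, 40 in DESeq2, 8 with sample quality weights, 4 without both libraries 3, 0 with the replicate block, 0 in limma on filtered log2 FPKM with a pseudocount of 0.1 or 1, and 0 to 3 with 1 library left out. Nothing in the labels pairs libraries of the same number, and deviations of same-numbered libraries correlated at -0.11, 0.11, 0.15 and 0.14 for numbers 1 to 4, and libraries 1 and 2 of WT correlated better with other numbers. With the replicate block 0 members were called and their median was -0.0059. Depth limits Hmox1, and spread between libraries limits most transferases.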

Other observations

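Genes that share much sequence with a member were examined after the shared windows were seen. Gm3776, which holds 75.7% of the 50-base windows of Gsta1, had 13.4, 10.9, 8.48 and 4.17 CPM in cKO and 5.73, 12.7, 12.7 and 6.30 CPM in WT. Like Gsta1 it was lowest in library 4 and highest in library 1 of cKO, and low in libraries 1 and 4 of WT. Summed over Gsta1, Gsta2, Gm3776 and Gm10639, the level was 98.2, 66.6, 46.7 and 22.0 CPM in cKO and 30.01, 67.0, 80.1 and 26.1 CPM in WT, of which Gsta1 made up most. Gpx4 and its pseudogene Gpx4-ps2 together were at 222 ± 51.8 CPM in cKO and 209.7 ± 70.2 CPM in WT (SD, n = 4 each). Gstp1, Gstp2 and Gstp-ps together were at 7.50 ± 3.53 CPM in cKO and 7.12 ± 0.838 CPM in WT.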
